A study of Mus musculus with 7 samples.

Results

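Uncx, Meox1 and Meox2 encode homeobox transcription factors, and they are 3 of the 16167 genes in the deposited table of mouse embryonic kidney RNA. They were picked by symbol, with their mutant and control values already known from an earlier look at these data, so every difference between the groups given for them here is a description and carries no test. All 3 are listed once in the table, and all 3 passed the filter on low values (at least 1 FPKM in at least 3 libraries), as did 13466 genes in all.

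RNA-seq was run on whole kidneys of mouse embryos at E15.5 (E stands for embryonic day). The 4 mutant libraries came from Six2-Cre; Irx3/5(loxP/loxP) embryos, in which the floxed Irx3 and Irx5 alleles are on both chromosomes and Six2-Cre is a recombinase active in nephron progenitors. The 3 control libraries came from Irx3/5(loxP/+) littermates, which carry the floxed allele on 1 chromosome and whose labels mention no Cre. The deletion and the transgene that makes Cre thus come together, and their effects cannot be told apart. Kidneys were collected in pairs, and the number of embryos behind each library is not in the labels; a p-value here therefore covers only variation among these 7 libraries, which may be technical. Values are FPKM (fragments scaled to gene length and sequencing depth). A log2 difference is the mean log2(FPKM + 1) of mutants less that of controls, and it falls short of the true change where a gene is low. In whole kidneys, fewer cells of a type and less RNA per cell cannot be told apart.

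Homeobox factors bind DNA through a homeodomain and set the identity of cells in the embryo. Uncx belongs to the paired-like class; in the mouse somite it maintains the posterior part, from which the pedicles and proximal ribs form. Meox1 and Meox2 are close relatives of the Antennapedia-like class that act together in somites, where they are needed for the sclerotome and its vertebrae, and Meox2 is also known from limb muscle and from vessels. In the fetal kidney, Uncx and Meox1 are known as genes of the nephron progenitors, the Six2-positive mesenchyme that caps the tips of the ureteric tree and gives rise to the epithelium of the nephron.

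Recovered reads in the listed genes ran from 40511920 to 69028943 per library. Irx3, 1 of the 2 targeted genes, was at 6.63, 3.98, 5.57 and 6.75 FPKM in mutants and at 14.7, 14.2 and 12.7 FPKM in controls (limma adjusted p = 0.0145, not called without control replicate 1 or 2), and Irx5, the other targeted gene, at 2.05, 0.895, 1.13 and 2.03 FPKM in mutants and at 1.36, 1.55 and 1.59 FPKM in controls. The Irx5 groups overlapped, and it was not called (log2 difference -0.01, SE 0.17; limma adjusted p = 0.989). The sum over 12 listed skeletal muscle genes was 25.5 to 35.3 FPKM in mutants, 28.4 and 31.6 FPKM in control replicates 2 and 3 and 109.9 FPKM in control replicate 1; Actc1 and Mylpf, the muscle actin and light chain genes, were at 26.2 and 17.8 FPKM in that library. The embryonic globin gene Hbb-y, which adult globins replace as the embryo ages, was at 1.38, 1.53, 10.5 and 2.24% of Hbb-bs in mutant replicates 1 to 4 and at 1.34, 1.39 and 3.45% in control replicates 1 to 3. Control replicate 1 and mutant replicate 3 thus stand apart, and results are also given without them.

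The window before the Meox2 start is shown because Meox2 and Uncx are homeobox genes whose RNA was lower together, and homeodomains commonly bind TAAT. The sequence is from RefSeq (GRCm38.p6, chr12:37108290-37108539, plus strand, the 250 bases before the annotated start), read 5′ to 3′, and the capitals mark its match to TAAT, here on the opposite strand.
Meox2: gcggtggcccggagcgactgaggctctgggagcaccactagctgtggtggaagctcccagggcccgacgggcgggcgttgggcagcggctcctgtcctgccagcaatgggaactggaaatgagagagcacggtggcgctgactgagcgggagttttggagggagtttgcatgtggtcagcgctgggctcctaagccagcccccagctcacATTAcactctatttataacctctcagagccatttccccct
Searched on both strands, TAAT had 1 match in this window, starting 40 bases before the start, and 5 matches, some overlapping, in the window of the same length before the RefSeq start of Uncx. That Uncx window lies within the gene as GENCODE M21 annotates it, inside a longer first exon, so its matches are in sequence that may be transcribed and are not comparable with those upstream of Meox2. TAAT was found in 54.9% of 32851 such windows. ACANNTGT, the palindromic site known for Iroquois factors, had 0 matches in both windows and was found in 6.31% of all; it can overlap TAAT by its last base only. A match is a description of these letters, and its absence says only that they are not in these windows.

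Uncx was the most abundant of the 3 genes in all 7 libraries. Uncx (ENSMUSG00000029546.13, chromosome 5) stood at 9.98, 5.63, 7.26 and 9.11 FPKM in mutant replicates 1 to 4, from 1686, 826, 1049 and 1466 reads. In control replicates 1 to 3 it stood at 36.0, 38.6 and 27.9 FPKM, from 7884, 7236 and 3593 reads. All mutants lay below all controls, and the lowest control was 2.80 times the highest mutant. The means were 7.99 ± 1.94 FPKM in mutants and 34.1 ± 5.56 FPKM in controls (SD, n = 4 and 3), so the mutant mean was 23.4% of the control mean. The log2 difference was -1.98 (SE 0.18), the 4th lowest among 13466 genes. By mean FPKM, Uncx exceeded 44.9% of 13460 genes in mutants and 85.4% of them in controls.

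Meox1 was lower in the mutants by the smallest factor of the 3. Meox1 (ENSMUSG00000001493.10, chromosome 11) stood at 5.87, 4.69, 6.71 and 4.36 FPKM in mutant replicates 1 to 4 (705, 489, 688 and 499 reads). It stood at 9.27, 10.7 and 12.9 FPKM in control replicates 1 to 3 (1443, 1422 and 1179 reads). The groups did not overlap, but they lay closer than for Uncx, with the lowest control 1.38 times the highest mutant. The means were 5.41 ± 1.08 FPKM in mutants and 10.9 ± 1.82 FPKM in controls (SD, n = 4 and 3), a mutant mean of 49.4% of the control mean. The log2 difference was -0.90 (SE 0.15), the 116th lowest of all genes kept.

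Meox2 was the least abundant of the 3 in every library. Meox2 (ENSMUSG00000036144.7, chromosome 12) stood at 1.46, 2.24, 2.91 and 3.01 FPKM in mutant replicates 1 to 4, from 186, 247, 316 and 364 reads. In control replicates 1 to 3 it stood at 7.37, 7.97 and 8.06 FPKM, from 1216, 1126 and 781 reads. The controls were close together, with an SD of 4.80% of their mean, whereas the mutants spread over an SD of 29.7% of theirs. The lowest control was 2.45 times the highest mutant. The means were 2.40 ± 0.71 FPKM in mutants and 7.80 ± 0.37 FPKM in controls (SD, n = 4 and 3), a mutant mean of 30.8% of the control mean, and the log2 difference was -1.40 (SE 0.16), the 31st lowest.

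**Figure D1:**
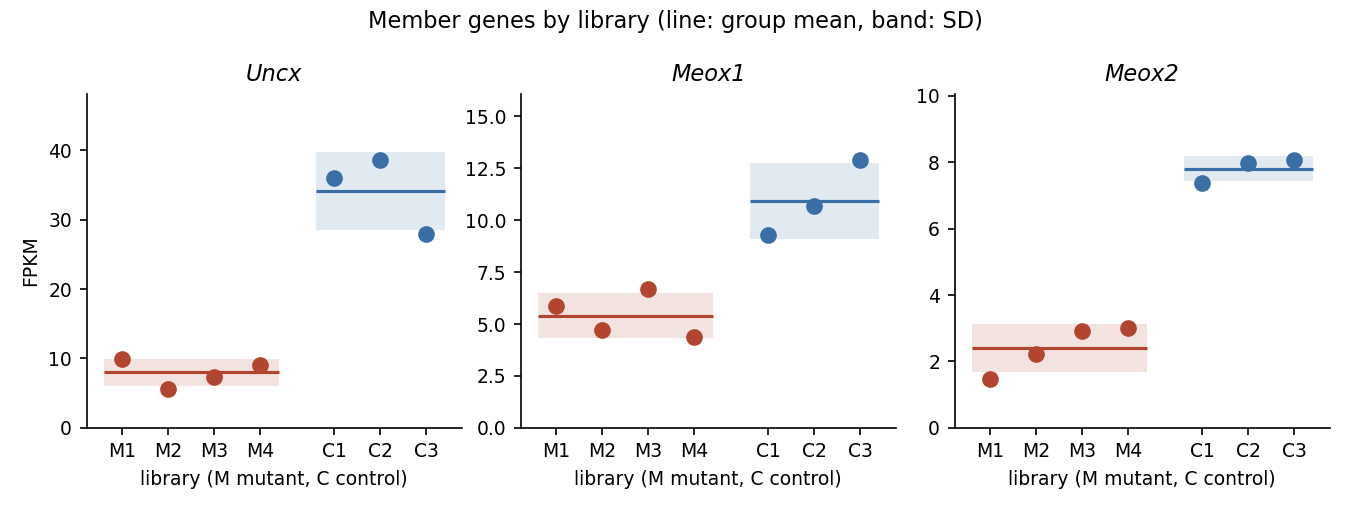
FPKM of Uncx, Meox1 and Meox2 in each library (points; M1 to M4 mutants, C1 to C3 controls), with the group mean (line) and SD (band) and a vertical axis of its own for each gene. All 4 mutants lie below all 3 controls for each gene, with the nearest approach for Meox1 (6.71 against 9.27 FPKM).

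All 3 genes were called lower in mutants by limma, as were 1.05% of the 13466 genes tested, and for all 3 the groups were apart with mutants below, as for 8.61% of the genes. The authors' deposited table also lists all 3 as lower at an adjusted p under 0.05, as it does 3.74% of its genes. Since the genes were chosen for these values, nothing is read from these counts. The order of the mutant levels among libraries was not the same for the 3 genes. Mutant replicate 1 had the highest Uncx and the lowest Meox2 of the 4 mutants. Mutant replicate 4 had the lowest Meox1 and the highest Meox2, and mutant replicate 3, the library with the most Hbb-y, had the highest Meox1. Among controls, replicate 3 had the lowest Uncx and the highest Meox1 and Meox2. The library with skeletal muscle RNA, control replicate 1, had the lowest Meox1 and Meox2 of the 3 controls. Without control replicate 1 and mutant replicate 3 the log2 differences were -1.91, -1.10 and -1.51 for Uncx, Meox1 and Meox2.

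The balance between the 3 genes differed between the groups for Meox1 and Uncx. Meox1 stood at 58.9, 83.3, 92.3 and 47.9% of Uncx FPKM in mutant replicates 1 to 4 and at 25.8, 27.7 and 46.2% in control replicates 1 to 3. The mutants were all higher, with mutant replicate 4 only just above control replicate 3. Meox2 stood at 24.9, 47.7, 43.4 and 68.9% of Meox1 in the mutants and at 79.6, 74.8 and 62.5% in the controls, and mutant replicate 4 fell within the controls. Meox2 as a share of Uncx was 14.7 to 40.0% in mutants and 20.5 to 28.9% in controls, so the groups overlapped. FPKM are per gene length, and the authors' definition of that length enters each of these shares. In GENCODE M21 on GRCm38, which is not the build of the deposited table, Uncx spans chr5:139543494-139548179 (plus strand), Meox1 chr11:101877510-101894374 (minus strand) and Meox2 chr12:37108540-37179534 (plus strand), with 3 exons in the longest transcript of each. In a check for reads that could be assigned to the wrong gene, the GENCODE M21 transcripts of the 3 genes shared 0 stretches of 31 bases. In that annotation Meox1 holds an antisense gene, Gm11551, whose span touches 0 Meox1 exons, and Meox2 overlaps Gm48617 on its own strand, whose span holds 1 Meox2 exon. Whether reads were counted by strand is not given in the sources used here, and reads of Gm48617 in that exon could not be told from Meox2.

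Against Six2, the gene that defines the nephron progenitors, all 3 were lower in every mutant library. Six2 itself was at 48.9, 28.9, 43.0 and 43.5 FPKM in mutants and at 49.1, 48.6 and 62.8 FPKM in controls, groups that overlap (log2 difference -0.39, SE 0.17; limma adjusted p = 0.384). Uncx stood at 20.4, 19.5, 16.9 and 20.9% of Six2 in mutant replicates 1 to 4 and at 73.3, 79.3 and 44.4% in control replicates 1 to 3. The mutants thus lay close together although Six2 was low in replicate 2, and the controls were spread more widely. Meox1 stood at 10.0 to 16.2% of Six2 in mutants and 18.9 to 21.9% in controls, and Meox2 at 2.99 to 7.73% and 12.8 to 16.4%.

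Against Cited1, the 3 genes parted. Cited1, a coregulator gene of the least committed progenitors, was at 6.34, 4.68, 4.92 and 5.09 FPKM in mutants and at 23.3, 23.0 and 25.0 FPKM in controls (log2 difference -1.99, SE 0.09; limma adjusted p = 4.6e-05). Uncx stood at 157.4, 120.3, 147.8 and 179.0% of Cited1 in mutant replicates 1 to 4 and at 154.6, 167.5 and 111.6% in control replicates 1 to 3, groups that overlap. Meox1 stood at 92.7, 100.3, 136.4 and 85.8% of Cited1 in mutants and at 39.8, 46.3 and 51.6% in controls, with all mutants higher. Meox2 stood at 23.1 to 59.2% in mutants and 31.7 to 34.6% in controls, where mutant replicate 1 was below the controls and the other mutants above. Relative to Wt1, which is expressed in progenitors and podocytes, the shares were lower in all mutants for Uncx (13.7 to 23.8% against 51.7 to 67.6% in controls), Meox1 (10.1 to 16.2% against 16.2 to 23.9%, nearly touching) and Meox2 (3.49 to 7.01% against 12.9 to 14.9%).

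**Figure D2:**
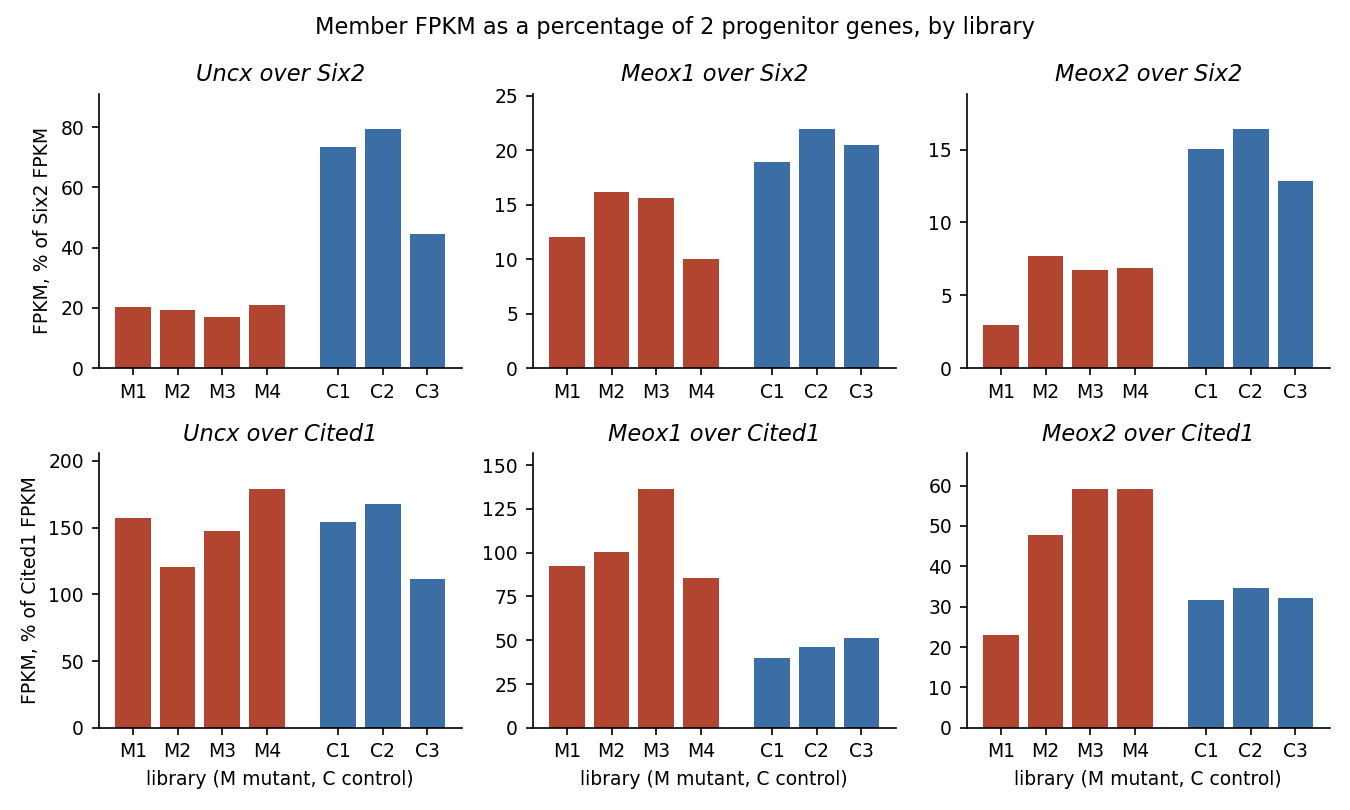
FPKM of Uncx, Meox1 and Meox2 as a percentage of Six2 FPKM (upper row) and of Cited1 FPKM (lower row) in each library (bars; M1 to M4 mutants, C1 to C3 controls). The shares of Six2 are lower in all mutants for each gene, while the share of Cited1 overlaps between groups for Uncx and is higher in all mutants for Meox1.

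The genes whose profiles over the 7 libraries lay nearest to each of the 3 were found by the root mean square difference of log2(FPKM + 1) after centring each gene on its mean. Because the 3 genes differ so clearly between the groups, any near profile shares that difference, and for genes found in this way it is a description with no test. Nearest to Uncx was Cited1 (0.21 log2 units), and Nrtn, the gene of the neurotrophic ligand neurturin, followed among named genes (0.24), then Rnaset2a, a ribonuclease gene (0.29); 2 gene models without a name stood between them. Nrtn was at 1.07, 0.084, 0.340 and 0.876 FPKM in mutants and at 4.64, 4.98 and 2.17 FPKM in controls. Like Uncx, Nrtn and Rnaset2a were lowest among controls in replicate 3, and Uncx and Nrtn were lowest among mutants in replicate 2. Rnaset2a has near-identical copies in the mouse genome, and its counts are uncertain.

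Nearest to Meox1 was Phf19 (0.13 log2 units), a gene of a Polycomb complex subunit, followed by the transporter gene Slc45a3 (0.17), Traf1 (0.19), Lamp5 (0.20) and Espn (0.20). Phf19 was at 5.49, 4.98, 6.36 and 5.12 FPKM in mutants and at 10.4, 10.1 and 11.2 FPKM in controls; its highest mutant and its highest control were, as for Meox1, replicate 3. Nearest to Meox2 was Snap91 (0.18), an endocytic adaptor gene best known from synapses, then Capn6 (0.25), Klhdc8a (0.26), an unnamed model and Traf1 (0.30). Snap91 was at 2.13, 1.84, 2.72 and 2.83 FPKM in mutants and at 6.59, 6.87 and 7.03 FPKM in controls. Traf1, an adaptor gene of tumour necrosis factor receptors, was near both Meox genes, at 0.984, 0.704, 0.877 and 0.744 FPKM in mutants and at 3.05, 2.71 and 3.07 FPKM in controls. Traf1, Lamp5 and Klhdc8a reached the 1 FPKM of the filter in the 3 controls alone. Uncx itself lay 0.47 from Meox2 and 0.63 from Meox1, and the Meox genes 0.39 from each other, so each had nearer profiles outside the 3 than within. The profiles were not scaled, so the unlike sizes of the 3 group differences enter these distances. Whether the 3 share a pattern cannot be read from them.

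**Figure D3:**
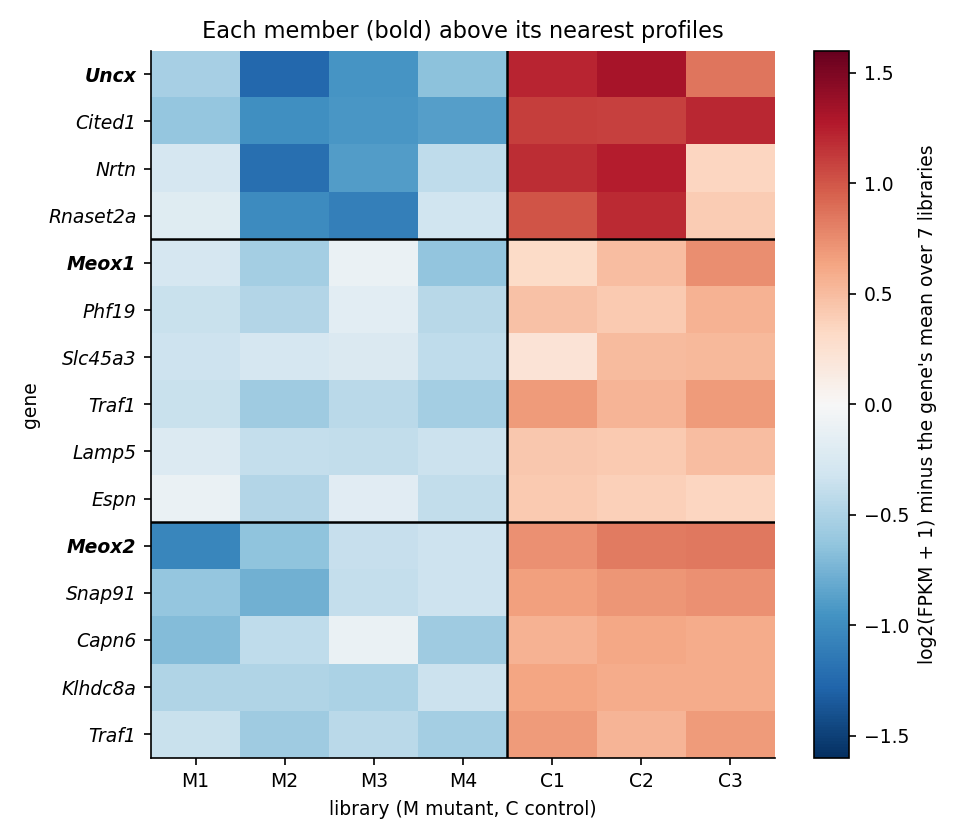
log2(FPKM + 1) minus each gene's mean over the 7 libraries (colour; columns M1 to M4 mutants, C1 to C3 controls) for Uncx, Meox1 and Meox2 (bold) and, under each, its nearest named genes. The nearest genes share the step between groups, and Nrtn and Rnaset2a share with Uncx the lower level in control replicate 3.

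Among other nephron progenitor genes, 8 of the 22 tested were called and 14 were not. Of those called, 7 fell and 1 rose, against 1.53% of all genes called in either direction, and the median log2 difference was -0.18 (-0.0020 over all genes tested). The summed FPKM of the 23 listed members was 445.9 to 482.8 in mutants and 526.4 to 548.9 in controls, so the groups did not overlap. The list holds Phf19, Traf1 and Cited1, which are neighbours of the 3 genes in profile, and Traf1 passed the filter through the 3 controls alone. Because the list was chosen with earlier results of these data known, its count is a description and no conclusion is drawn from it. Tmem100 fell to 4.64 ± 0.45 FPKM in mutants, against 8.42 ± 0.47 FPKM in controls, and Spock2, a matrix proteoglycan gene, to 30.7 ± 1.80 against 43.6 ± 2.01 FPKM. The Tmem100 call was lost without control replicate 2. The remaining falls were those of Wt1 (log2 difference -0.41), which was not called in 4 of the 7 omissions of a library, and Pax2 (-0.57), and Crym rose (51.6 ± 1.07 FPKM in mutants, 38.0 ± 1.95 FPKM in controls); Spock2 and Crym fall outside the rule for named genes and were picked after their values were seen. Osr1, Eya1, Sall1 and Gdnf, regulators that also belong to this mesenchyme, did not pass, with log2 differences of 0.12, -0.16, -0.11 and -0.11, and were likewise picked afterwards. The number called came to 4, 3 and 6 when control replicates 1 to 3 were left out in turn, and to 7, 4, 8 and 4 when mutant replicates 1 to 4 were.

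Of genes that act beside the 3 in somites, limma called none. From a list of 23 such genes 13 were listed and 11 tested, with a median log2 difference of 0.04. Limma called 0, with 4 at an unadjusted p under 0.05, a level for which the share over all genes is not given here. The authors' deposited table has 4 at an adjusted p under 0.05, 2 higher and 2 lower, against 5.49% of its genes. Tcf15, the paraxis gene, whose product pairs with Meox2 in heart endothelium, was at 2.25, 1.70, 1.84 and 1.85 FPKM in mutants and at 5.36, 5.13 and 2.58 FPKM in controls. Its groups were apart, but it missed the threshold in limma (log2 difference -0.84, SE 0.19, limma adjusted p = 0.0775). It passed in the authors' deposited test (DESeq2 adjusted p = 0.00123). Its lowest control, like that of Uncx, was replicate 3. Leaving out control replicate 3 gave 1 call in this list, that of Tcf15 as lower, and leaving out mutant replicate 1 gave 1, that of the forkhead gene Foxc2 as lower. Foxc2 also passed in the authors' deposited test (DESeq2 adjusted p = 0.00111). Of 13 tested genes tied to Meox1 or Meox2 in vessels, heart or somites, limma called 0 (6 at an unadjusted p under 0.05). The authors' deposited table has 4 of these at an adjusted p under 0.05, 2 higher and 2 lower, against 5.49% of its genes. Tcf15 and Cdkn1a are among them. Cdkn1a, the gene of a cell cycle inhibitor that Meox2 activates in vascular cells, was at 10.7 ± 1.70 FPKM in mutants and 7.52 ± 0.30 FPKM in controls (limma adjusted p = 0.0945, deposited DESeq2 adjusted p = 0.00607).

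Other homeobox genes of the same classes were counted in the same fit, in which limma called 1.53% of all genes. Of 6 tested paired-type genes, 1 fell and 5 did not pass (median -0.09): Pax2 was at 24.3 ± 3.63 FPKM in mutants and 36.3 ± 3.11 FPKM in controls (limma adjusted p = 0.0495), a call that was kept in 1 of the 7 omissions of a single library, that of mutant replicate 3, and was lost with median-of-ratios scaling. Of 32 tested Antennapedia-type genes, 2 rose, 1 fell and 29 did not pass (median -0.10), against 1.53% of all genes called; the authors' deposited table has 8 at an adjusted p under 0.05, against 5.49% of its genes. Hoxd12 was at 6.87 ± 0.24 FPKM in mutants and 4.31 ± 0.43 FPKM in controls, and Hoxc10 at 55.0 ± 2.80 and 43.5 ± 1.58 FPKM, while Hoxb2 was at 22.8 ± 2.53 and 34.3 ± 4.54 FPKM. Of these calls, that of Hoxd12 was lost in 4 of 7 omissions, that of Hoxb2 in 5 and that of Hoxc10 in 6, and 0 of the 3 were made when control replicate 1, control replicate 2, mutant replicate 2 or mutant replicate 4 was absent. Among 13 tested early nephron genes 1 fell and 12 were not called (median -0.20), against 1.53% of all genes called. Of the 13, 11 had a log2 difference below 0 and 2 above. The authors' deposited table has 5 of the 13 lower at an adjusted p under 0.05, against 3.74% of its genes. The summed FPKM of the 14 listed was 387.9 to 437.7 in mutants and 441.8 to 447.4 in controls, so the groups did not overlap. The gene called by limma was Pou3f3, a POU factor gene of the distal nephron, at 12.1 ± 0.93 FPKM in mutants and 17.4 ± 1.29 FPKM in controls. Among the 7 omissions of a single library, that call was kept in those of control replicate 3 and mutant replicate 1 alone.

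Among markers of the other cells in which these genes are known, limma called 0 of 15 endothelial genes (2 at an unadjusted p under 0.05; summed FPKM 296.7 to 332.4 in mutants, 297.1 to 310.1 in controls), 0 of 13 smooth muscle and pericyte genes (3 at an unadjusted p under 0.05; 226.4 to 268.9 in mutants, 249.6 to 336.0 in controls) and 0 of 6 tested skeletal muscle genes (0 at an unadjusted p under 0.05). The sums of all 3 lists overlapped between the groups. The share of all genes at an unadjusted p under 0.05 is not given here, so no conclusion is drawn from those counts. Of 16 tested stroma genes, 4 rose and 12 were not called (median 0.41), against 0.475% of all genes called higher. Their summed FPKM was 1022.8 to 1228.5 in mutants and 753.3 to 971.3 in controls. The authors' deposited table has 8 of the 16 higher at an adjusted p under 0.05, against 5.49% of its genes in either direction. This list was also chosen with earlier results known, so its counts are a description. Aldh1a2, which makes retinoic acid, rose (log2 difference 0.47, limma adjusted p = 0.0156), as did Snai2, Cldn11 and Ntn1 (0.45, 0.67 and 0.47). The calls in this list came to 0 on leaving out any single control and to 0 on leaving out mutant replicate 2 or 4. They came to 5 without mutant replicate 1 and to 3 without mutant replicate 3. The Ntn1 call was lost in all 7 omissions of a single library and with median-of-ratios scaling. The part of these other cells in the levels of Uncx, Meox1 and Meox2 was not tested.

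**Figure D4:**
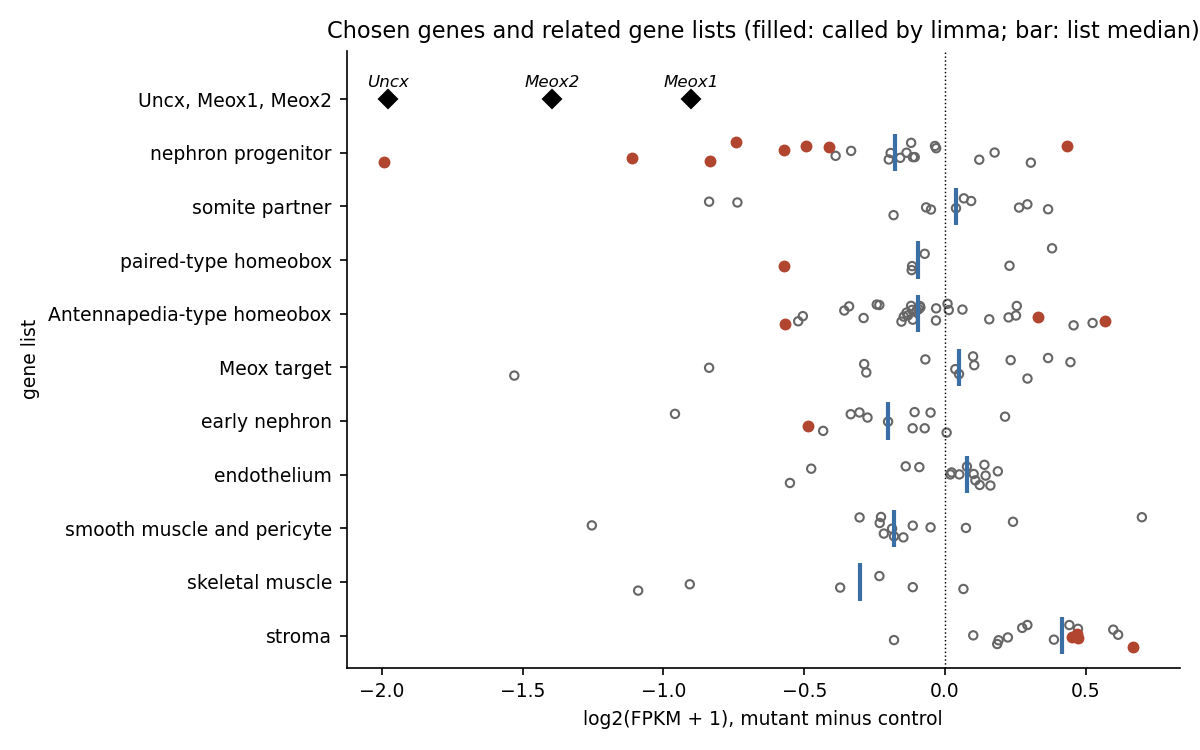
Log2 difference, mutant minus control, of Uncx, Meox1 and Meox2 (diamonds) above the tested genes of each list (circles, filled where limma called the gene; bar, list median). The 3 genes lie at -1.98, -1.40 and -0.90, while the list medians run from -0.30 (skeletal muscle) to 0.41 (stroma).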

How the data were processed

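RNA of 4 mutant and 3 control kidney libraries (NEB Ultra II Directional, a stranded kit, per the labels' protocols) was deposited by the authors as 1 table. The submitters' processing notes name STAR 2.6.0c, HTSeq 0.6.1p2, Trim Galore 0.5.0, DESeq2 and the build GRCm39 (mm39), with no role stated. The authors deposited FPKM per library and, per the file headers, the mean normalized count (baseMean, a signal), log2 fold change and its standard error, test statistic (a score), p-value and adjusted p-value; how they defined gene length is not given in the sources used here. Reads per library were recovered from baseMean and FPKM: 100% of values lay within 0.05 of a whole number. Genes with at least 1 FPKM in at least 3 libraries (13466) were compared on log2(FPKM + 1) in R 4.3.3 with limma 3.58.1 (empirical Bayes, trended and robust), two-sided, called at a Benjamini-Hochberg adjusted p under 0.05; the pipeline was tested on simulated data. Uncx, Meox1 and Meox2, the gene lists and the tests were chosen with earlier results of these data known. The rule for other named genes took the targeted and progenitor genes, globins, the 5 nearest profiles per gene, up to 4 called genes per list (or the 2 with the smallest p) and the 2 most abundant muscle genes. Not every gene the rule gave is described, and 1 gene of the somite and stroma lists is not reported here and was left out of their counts. Shared replicate numbers were not taken to pair the libraries, though a litter or batch shared between them was not excluded. Motifs were searched with Python 3.11.15 in RefSeq windows on GRCm38.p6, which is not the build of the table. Alternatives were another pseudocount, filters, scalings, a replicate block, each library left out and the deposited test; equal FPKM sums and the joint omission of control replicate 1 and mutant replicate 3 were added after seeing the data.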

Additional observations from a re-analysis of the deposited data

Results flagged for a closer look

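A sample far from the others of its group was looked for among the 4 mutants in 63 sets of values; chance marks about 1 in 20, and 3 were marked. Hbb-y was at 149.3 FPKM in mutant replicate 3, and its share of Hbb-bs there was 10.5%, both above the other mutants. Klhdc8a, a near profile of Meox2, was at 0.292 FPKM in mutant replicate 4, against 0.153 to 0.175 FPKM in the other mutants. None of the values of Uncx, Meox1 and Meox2 was marked.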

How the results depend on the processing

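The log2 differences of Uncx, Meox1 and Meox2 were below 0 under all 15 alternatives run for each. Since all mutants lay below all controls, no omission could change the sign. The filters left each difference as it was, and the replicate block gave the same differences as leaving out mutant replicate 4. The 15 are thus not separate checks, and nothing is read from their number. Leaving out each library in turn gave -2.11 to -1.84 for Uncx, -1.01 to -0.79 for Meox1 and -1.48 to -1.25 for Meox2. Meox2 moved by more than its SD between replicates with a pseudocount of 0.1 (-1.71) and in the authors' deposited table (-1.70). Counts of called genes depended far more on the settings than these differences. The total of 206 genes was 109 with a pseudocount of 0.1, 60 with a minimum of 5 FPKM and 18 without control replicate 1 and mutant replicate 3. It was 886 in the deposited table and ran from 15 to 481 over the omissions of a library. The share of calls higher in mutants was 31.1%, and it also moved with the settings. It was 20.9% with equal FPKM sums, 40.4% with a pseudocount of 0.1 and 51.7% with a minimum of 5 FPKM. With the replicate number as a block, 2 genes were called and 1 progenitor gene, with 0 in the paired-type, Antennapedia-type, early nephron and stroma lists; same-numbered libraries correlated at -0.16, 0.03 and 0.10 in their deviations from the group means, so the numbers are not taken to pair them. Of list calls, a pseudocount of 0.1 and a minimum of 5 FPKM each left 0 paired-type and 1 Antennapedia-type genes. Median-of-ratios scaling left 0 paired-type genes; equal FPKM sums left 0 paired-type genes and gave 2 early nephron genes. The joint omission left 3 progenitor genes and 0 in the other lists. The deposited table called 5.49% of its genes in either direction. Among tested list genes it called 4 of 11 somite (2 higher, 2 lower), 8 of 32 Antennapedia-type (4 higher, 4 lower) and 4 of 13 Meox-tied genes (2 higher, 2 lower). It also called 5 of 13 early nephron genes (all lower), 3 of 13 smooth muscle genes (2 higher, 1 lower) and 8 of 16 stroma genes (all higher). Over the omissions the calls ran from 3 to 8 (progenitor), 0 to 1 (somite), 0 to 1 (paired-type), 0 to 6 (Antennapedia-type), 0 to 1 (Meox-tied), 0 to 2 (early nephron), 0 to 1 (smooth muscle) and 0 to 5 (stroma). The causes of these changes were not tested; an omission also leaves fewer libraries. Meox2 rests on 186 to 364 reads per mutant library, the fewest of the 3.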
